A study of Homo sapiens with 6 samples.

Results

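ATP-binding cassette (ABC) genes were described in SKOV3 cells, a human ovarian cancer cell line, with and without siRNA against DNM3OS, a long non-coding RNA. Members were the protein-coding genes named ABCA to ABCG with a number, plus TAP2 and CFTR, and 47 of the 34834 genes with a quantified transcript met this rule. The experiment held 3 samples transfected with a pool of siRNAs against DNM3OS and 3 samples, labelled NT, transfected with a pool of non-targeting siRNAs. Both pools were used at 50 nM with a lipid reagent, and RNA was taken after 48 h. All 6 samples come from the same line, and nothing in the labels says whether the replicates were separate cultures, so p-values measure the spread between these samples, which may be technical. The question put to these genes was which of them SKOV3 cells hold at a measurable level, and whether any of them differed between knockdown and control.

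ABC proteins bind and hydrolyse ATP in a conserved pair of nucleotide-binding domains, and most couple that cycle to moving a substrate across a membrane. Subfamily A carries mainly lipids, subfamily B peptides, drugs, bile salts and mitochondrial substrates, and subfamily C organic anions and drug conjugates, together with a chloride channel and the regulatory subunits of potassium channels. Subfamily D works in peroxisomes and lysosomes, subfamily G carries sterols and drugs, and subfamilies E and F have no membrane-spanning part and act on ribosomes. The drug pumps ABCB1 (P-glycoprotein), ABCC1 and ABCG2 are known for exporting chemotherapy from cancer cells, ovarian cancer cells among them.

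The estimated counts of the 6 libraries summed to between 1610937 and 1995888. The 4 genes with most counts took 27.8% of the counts on genes in knockdown replicate 1 and 32.8% in control replicate 2. In the other samples they took 35.2% to 37.8%. Levels on the CPM scale are counts relative to the library total, and 3 counts equal 1.61 to 1.97 CPM in these libraries before TMM normalization, which further scales the libraries to each other. No transcript of DNM3OS was in the quantified set, so the knockdown was not measured by these values. Abundant mRNAs that every cell uses were low and uneven, with a summed level of ACTB, GAPDH, EEF1A1, RPLP0, TPT1 and FTH1 of 211 CPM in knockdown replicate 1, 871 and 788 CPM in the other knockdown samples and 1629, 539 and 1242 CPM in the controls. Knockdown replicate 1 therefore stood apart from the rest, and control replicate 2 was the lowest of the controls. Of the markers of an epithelial ovarian line, KRT8 held 1195 to 2566 counts and ERBB2 311 to 872 counts. KRT18 held 38 to 165 counts, KRT19 19 to 184, PAX8 26 to 46 and EPCAM 16 to 32. MUC16 and WT1 held at most 2 and 4 counts. This list of 8 genes summed to 975 to 2276 CPM in the knockdown samples and 1133 to 1750 CPM in the controls. Of the markers of other cells, CD14 and ALB were at 0 counts in all 6 samples and PTPRC held 91 to 148 counts. The leukocyte list of 4 genes summed to 80.0 to 94.7 CPM in the knockdown samples and 68.9 to 85.8 CPM in the controls, that of 3 endothelial genes to 16.8 to 31.2 CPM and 19.0 to 26.5 CPM, and that of 3 fibroblast genes to 31.6 to 39.2 CPM and 27.3 to 39.3 CPM. Their part in any result was not tested.

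The libraries were stranded, but the strand setting of the quantification is not given in the sources used here, so reads from a gene and from its antisense partner may not be told apart. Among all protein-coding genes, the 125 whose exons lay to at least 50% over coding-gene exons of the other strand had a median of 89.6 counts per sample, against 9.34 counts for the 16054 genes with no such overlap. Exons of the other strand touched 12 of the 47 ABC genes (25.5%), against 35.2% of all 19439 protein-coding genes. Only 1 ABC gene, ABCB9, reached 10% of its exonic bases by this measure and 0 reached 50%. Levels given here for ABC genes may thus include signal from the other strand. Next to ABCB9, the largest overlaps were those of ABCE1 (6.52% of exonic bases, from OTUD4 and ANAPC10), ABCA9 (5.92%, from the antisense RNA ABCA9-AS1), ABCG5 (3.68%, from ABCG8), ABCC11 (3.41%, from LONP2) and ABCB8 (2.22%), and those of the other 6 members were 1.40% or less. Transcripts with any overlap held 49.2% to 60.5% of ABCA9 counts and 57.1% to 90.2% of ABCE1 counts per sample.

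The ABC genes that carried the signal were ABCB9, ABCC9, ABCC11 and ABCA9 on the scale of counts, and CFTR and ABCB9 once transcript length was taken into account. Of the 47 genes, 29 passed the filter on low counts and were tested (61.7%), against 54.6% of all protein-coding genes. A further 18 were below the filter. Of these, 5 held no count in any sample, namely ABCB1, ABCB11 (the bile salt export pump), ABCC8 (the sulfonylurea receptor of pancreatic beta cells), ABCC12 and ABCD2. The tested members had a median of 27.7 counts per sample, against 36.1 counts for all 11814 genes tested. In such bulk samples, fewer cells that use a gene and less RNA per cell cannot be told apart.

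By TPM, the deposited abundance scaled by transcript length and library and summed per gene, CFTR came first at 172 TPM averaged over the 6 samples and ABCB9 second at 110 TPM. CFTR, the chloride channel of epithelia, ranged from 110 to 260 TPM and ABCB9, a lysosomal peptide transporter, from 102 to 117 TPM, so their ranges overlapped, although CFTR was above ABCB9 within each of the 6 samples. ABCC10 followed at 71.9 TPM, and its highest sample, 89.8 TPM, lay below the lowest ABCB9 value. ABCC3 (67.2 TPM), ABCA9 (64.3 TPM), ABCC11 (59.8 TPM), ABCC2 (42.7 TPM) and ABCC9 (39.7 TPM) came next, and each overlapped its neighbour in this order. Of these 8 genes, 6 belong to subfamily C.

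The plot of both scales shows how far the order of the genes depended on length. CFTR stood first in TPM but 13th in CPM, with only 17.8 CPM. ABCC9 stood second in CPM, at 225 CPM, but eighth in TPM.

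**Figure D1:**
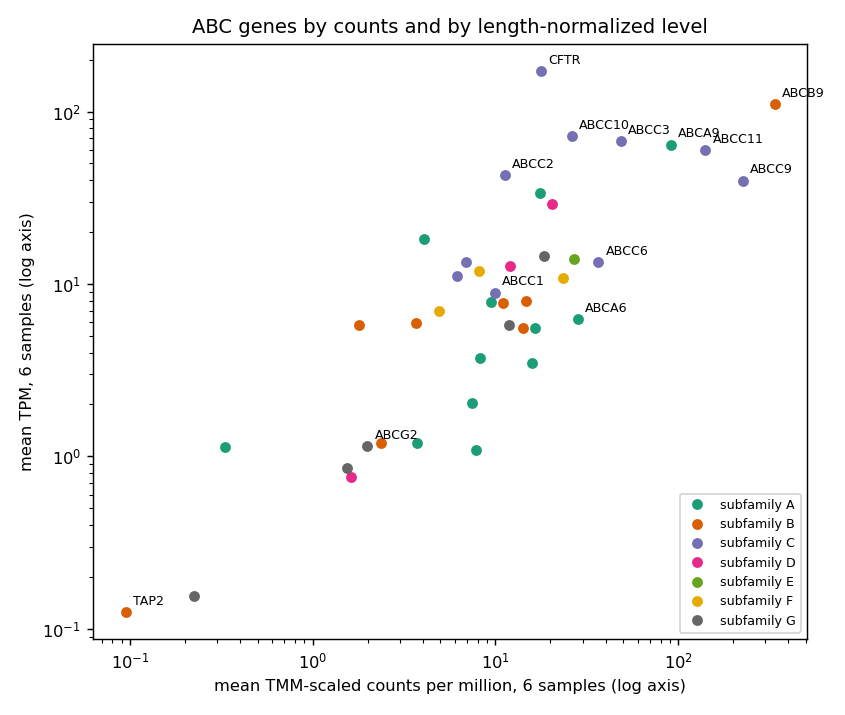
Mean TMM-scaled CPM (x, log axis) against mean TPM (y, log axis) over the 6 samples for the 42 ABC genes with any count, coloured by subfamily. CFTR lies highest in TPM (172) at only 17.8 CPM, while ABCB9 and ABCC9 lie farthest right (338 and 225 CPM).

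The place of CFTR at the top in TPM rested on a short transcript. CFTR held 44, 23 and 23 counts with knockdown and 29, 38 and 23 in controls. Its transcript CFTR-208, 222 bases in 3 exons with no coding sequence in the annotation, held 43.8% of these counts but 81.5% of the TPM of the gene. The canonical coding transcript CFTR-201 held 0 counts. On the TPM scale CFTR was at 195 ± 56.2 with knockdown and 148 ± 35.8 in controls (SD, n = 3 each), and the difference turned from -0.05 on the log2 count scale to 0.36 with length-scaled counts. Of the 192 words of 31 bases in CFTR-208, 14 also occur in quantified transcripts of 10 other genes on the same strand and 17 in those of 9 other genes on the other strand.

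Several other ABC genes were led by transcripts that share sequence with many genes. In ABCC10-205, an intron-retaining transcript of 733 bases that held 54.0% of the ABCC10 counts, 37.7% of the 31-base words also occur on the same strand in transcripts of 1479 other genes. ABCC2-202, 525 bases with no coding sequence given, held 99.1% of the ABCC2 counts and shared 10.7% of its words with 123 other genes. ABCB9-215, in contrast, shared 0 words with another gene on its own strand and 44.5% with 2 genes on the other strand. How the reads of such shared words were divided was not tested.

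Drug efflux members were led by ABCC3 and ABCC10, and the best-known pump, ABCB1, was not detected. ABCB1 held 0 counts in all 6 samples, which allows up to 3 counts, or between 1.61 and 1.97 CPM, in a sample (this covers counting error only). ABCG2, the breast cancer resistance pump, held 5, 4 and 2 counts with knockdown and 2, 4 and 3 in controls, too few to pass the filter. Neither pump can be compared between the groups at this depth. Abundant mRNAs were low in these libraries as well (GAPDH held 27 to 414 counts), and the strand setting is not known. So 0 or few counts of an ABC gene do not bound how much of its RNA SKOV3 cells hold.

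ABCC3, a basolateral exporter of glucuronides and bile acids, held 105, 69 and 75 counts with knockdown and 80, 91 and 64 in controls. Scaled, these were 49.4 ± 3.05 CPM and 47.6 ± 11.1 CPM (SD, n = 3 each), and the groups overlapped. Its counts were spread over coding, intron-retaining and other transcripts, with 12.9% on the canonical coding transcript.

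ABCC10, a broad lipophilic drug exporter, held 68, 31 and 33 counts with knockdown and 44, 52 and 38 in controls, or 25.2 ± 5.64 CPM against 27.2 ± 6.12 CPM. The highest value on the CPM scale was control replicate 2 (34.0 CPM) and the next knockdown replicate 1 (31.6 CPM). ABCC2, the canalicular exporter of conjugates, held 29, 23 and 5 counts with knockdown and 22, 17 and 19 in controls. The low knockdown sample was replicate 3, and the other 5 samples lay between 11.1 and 15.5 CPM.

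ABCC1, which exports glutathione conjugates and anthracyclines, held 14, 15 and 10 counts with knockdown and 21, 14 and 25 in controls. Its mean was lower in the knockdown by 0.62 on the log2 scale (SE 0.25), the largest decrease among the tested ABC genes on the scale of counts, but knockdown replicate 2 (10.1 CPM) lay above control replicate 2 (9.17 CPM). The edgeR exact test gave p = 0.129 before adjustment and an adjusted p of 1. With length-scaled counts the log2 difference of ABCC1 was only -0.12. The intron-retaining transcript ABCC1-204 held 63.6% of its counts and the canonical transcript 21.5%. ABCC4, an exporter of cyclic nucleotides and prostaglandins, held 18, 4 and 14 counts against 9, 11 and 14, and ABCC5, which also exports cyclic nucleotides, held 20, 6 and 9 against 9, 6 and 14 and stayed below the filter. Summed, the 8 drug efflux genes gave 120, 103 and 104 CPM with knockdown and 107, 128 and 104 CPM in controls. The groups overlapped, and the lowest of all 6 values (103 CPM) and the second highest (120 CPM) were both knockdown samples.

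**Figure D2:**
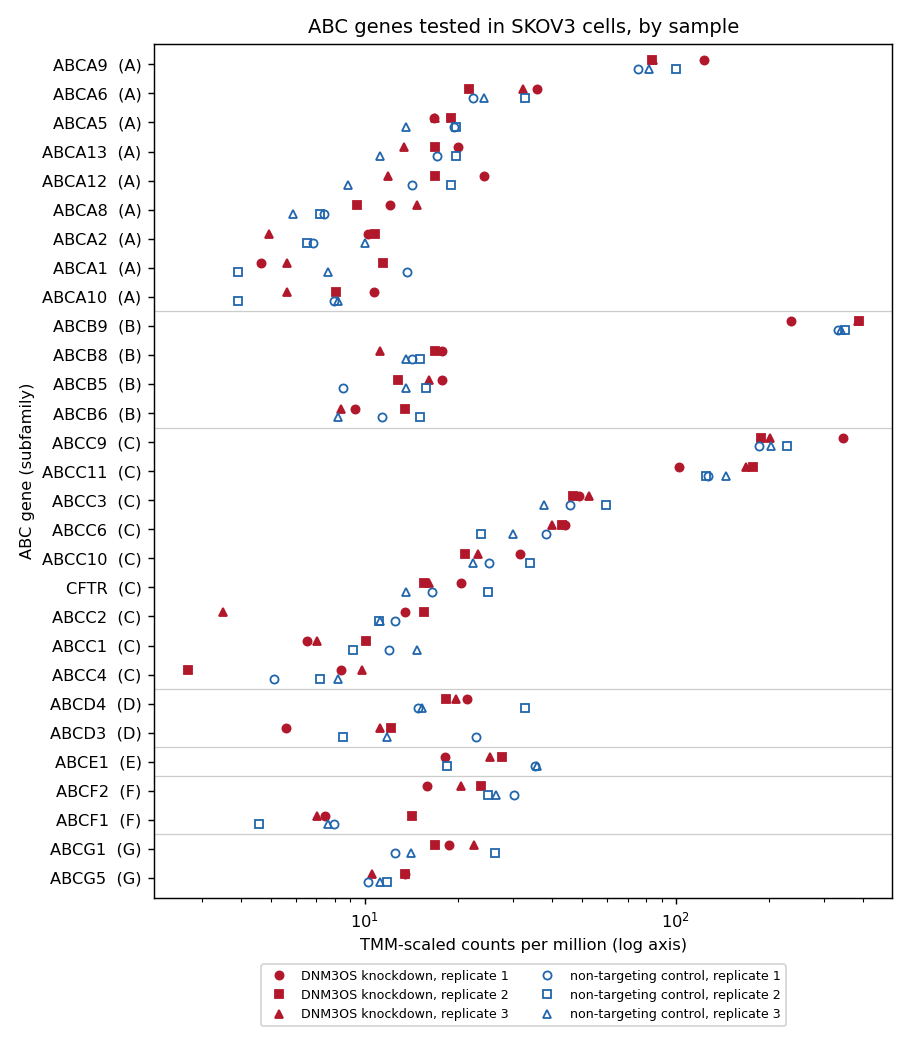
TMM-scaled CPM (log axis) of the 29 tested ABC genes in each of the 6 samples, grouped by subfamily, with filled red marks for knockdown and open blue marks for control. The 2 groups overlap in 26 genes, and ABCC9 and ABCA9 show 1 knockdown sample, replicate 1, apart from the other 5.

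The most abundant members on the count scale had other roles. ABCB9 held 505, 574 and 548 counts with knockdown and 582, 533 and 576 in controls. On the CPM scale knockdown replicate 1 was the low sample, at 235 CPM, against 388 and 385 CPM in the other knockdown samples and 332, 349 and 339 CPM in the controls. The log2 difference was -0.02 (SE 0.24).

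Most ABCB9 counts lay on a transcript that runs across genes of the other strand. ABCB9 is on the minus strand of chromosome 12 (chr12:122920951-122981649), and 24.6% of its exonic bases lay under exons of the other strand, including 1656 bases of OGFOD2 and 1590 bases of ARL6IP4. ABCB9-215, 6051 bases long and 45.5% overlapped, held 79.8% of the ABCB9 counts. The canonical transcript ABCB9-201 held 0 counts. OGFOD2 itself held 122 to 205 counts and ARL6IP4 60 to 116 counts.

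The share of ABCB9 counts on its 3 overlapping transcripts was 69.1% in knockdown replicate 1 (95% Wilson interval 64.9 to 73.0) and between 86.1% and 89.8% in the other 5 samples. The intervals of those 5 samples all began above 82%, and intervals cover counting error only. Over the 17 transcripts without overlap the knockdown samples gave 72.7, 50.9 and 41.8 CPM and the controls 45.9, 48.5 and 35.1 CPM. Using only transcripts without overlap moved the log2 difference of ABCB9 to 0.33, with no call. In knockdown replicate 1 the part with overlap was thus low, at 162 CPM, and the part without it high, while abundant mRNAs were lowest in the same sample. Whether these belong together was not tested.

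**Figure D3:**
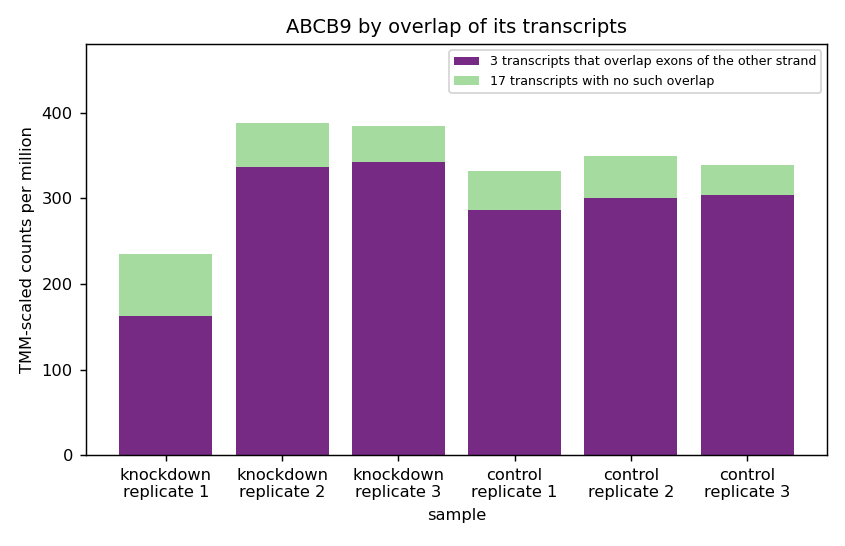
ABCB9 in each sample as stacked bars of TMM-scaled CPM, split into its 3 transcripts that overlap exons of the other strand (purple) and the 17 that do not (green). The purple part is 162 CPM in knockdown replicate 1 and between 286 and 343 CPM in the other 5 samples.

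ABCC9, the sulfonylurea receptor of muscle-type ATP-sensitive potassium channels, held 740 counts in knockdown replicate 1 against 278 and 287 in the other knockdown samples and 326, 347 and 345 in the controls. On the CPM scale these were 344, 188 and 201 against 186, 227 and 203, and the other 5 samples lay close together. The log2 difference of 0.26 (SE 0.29) turned to -0.07 without knockdown replicate 1. Nearly all counts (99.5%) lay on the canonical transcript ABCC9-201, whose length in the files (8293 bases) differs from the annotation (8668 bases). The other sulfonylurea receptor, ABCC8, held 0 counts.

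ABCC11, a lipophilic anion exporter of apocrine glands, held 220, 263 and 239 counts with knockdown and 223, 191 and 247 in controls. The intron-retaining transcript ABCC11-207 held 98.6% of them, and 8.03% of its bases lay under exons of the other strand. The partner there was LONP2, a peroxisomal protease with 705 to 848 counts, which shares 289 exonic bases with ABCC11.

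The lipid transporters of subfamily A included 5 neighbours on the minus strand of chromosome 17, ABCA5, ABCA6, ABCA8, ABCA9 and ABCA10. All 5 passed the filter, and together they gave 199, 142 and 154 CPM with knockdown and 133, 164 and 134 CPM in controls. ABCA9 held most of this, with 265 counts in knockdown replicate 1, 124 and 120 in the other knockdown samples and 133, 153 and 139 in the controls. Its log2 difference of 0.18 (SE 0.22) turned to -0.02 without knockdown replicate 1. ABCA1, the cholesterol exporter, held 6 to 24 counts and ABCA7 4 to 8 counts, and over the whole subfamily the 12 genes summed to 225 ± 35.3 CPM in the knockdown samples and 196 ± 21.9 CPM in the controls.

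Antigen-processing and peroxisomal members were low. TAP2, which feeds peptides to MHC class I in the endoplasmic reticulum, held 1 count in 1 control and 0 in the other 5 samples. It shares 2023 exonic bases with another coding gene on the same strand, which held at most 3.27 counts in a sample. How reads were divided between these genes was not tested. ABCD3, which imports acyl-CoA into peroxisomes, held 12, 18 and 16 counts against 40, 13 and 20. Its log2 difference of -0.61 (SE 0.49) rested on control replicate 1 and was -0.11 without it.

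Which annotated kind of transcript held the counts differed from gene to gene. Of the 26 tested ABC genes with a quantified canonical transcript, that transcript held at least 50% of the counts in 7 and under 10% in 16, with a median of 4.49%. The canonical form held 99.7% of the counts of ABCA1, 96.4% of ABCF2, 74.1% of ABCC6 and 72.6% of ABCE1. In ABCG5, ABCC11, ABCA2, ABCA6, ABCB8, ABCB6, ABCG1 and ABCA8, intron-retaining transcripts led, with 69.8% to 100% on the first of them. Such transcripts also led, with smaller shares, in ABCC1 (63.6%), ABCA5 (61.1%), ABCD4 (56.9%), ABCC10 (54.0%) and ABCC3 (33.7%).

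Intron-retaining transcripts took between 25.2% and 29.4% of ABC counts per sample, against 11.5% to 14.8% over all protein-coding genes. Without ABCB9 and ABCC9 the ABC share was 42.4% to 51.1%, and without the 4 genes with most counts the share over all protein-coding genes was 18.6% to 21.0%. The ABC range lay above the other in all 6 samples by either measure. ABCA8-202 and ABCC10-205 are among the transcripts that share words with over 1000 other genes, so for these the count of the transcript is uncertain.

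**Figure D4:**
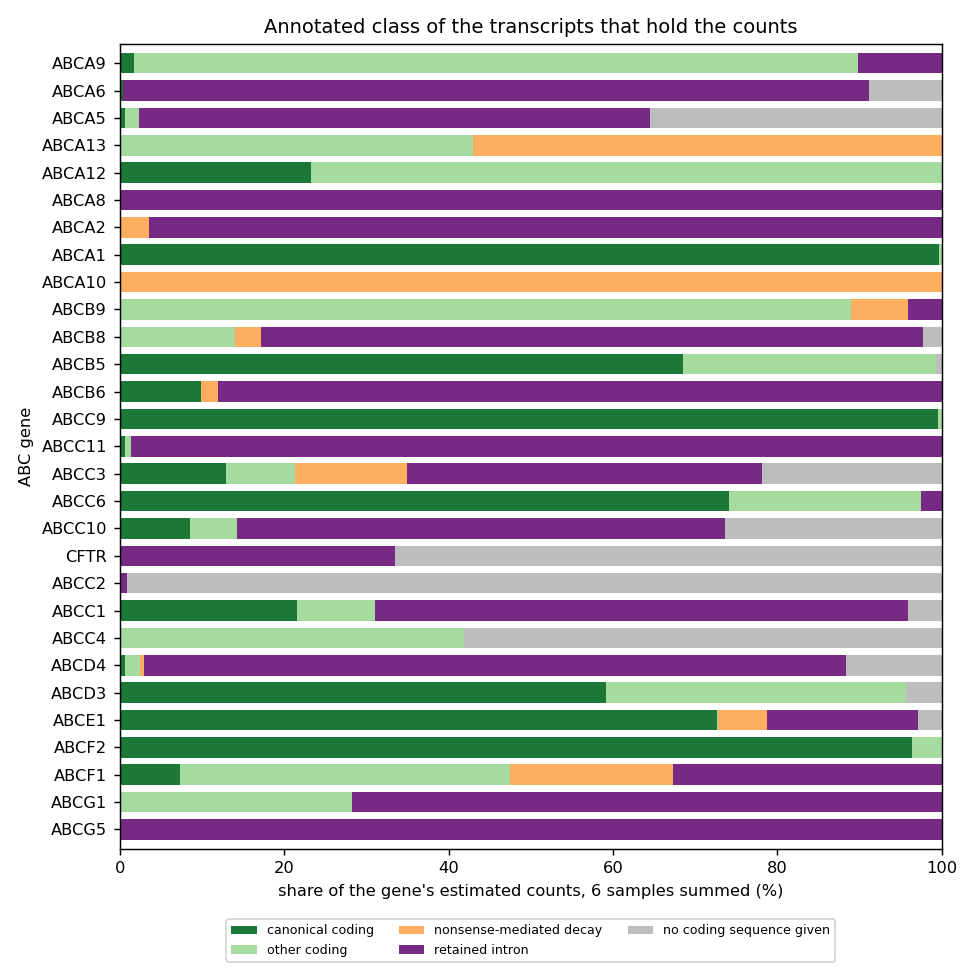
Share of each tested ABC gene's estimated counts (x, %, 6 samples summed) by the annotated class of the transcripts that hold them, in the same gene order as the plot of levels. ABCA1, ABCC9 and ABCF2 are nearly all canonical coding, ABCC11 and ABCG5 nearly all intron-retaining, and ABCC2 nearly all on a transcript with no coding sequence given (ABCC2, ABCC4 and ABCA10 had no quantified canonical transcript).

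Sequence upstream of the genes was described with the RefSeq promoter windows (GRCh38.p14, 250 bases before to 50 bases after each start), of which 33 matched a member by symbol within 500 bases of its annotated start. The 21 windows of tested members held a median of 23 CpG pairs and those of 9 members with counts below the filter 29, against 14 over all 35116 windows. The 3 windows of members with no count held 5 (ABCC12), 8 (ABCD2) and 16 (ABCB1). The motif GGGCGG or its reverse CCGCCC was in 52.4% of the tested members' windows, 77.8% of those below the filter, 33.3% of those with no count (1 of 3) and 45.0% of all windows.

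No ABC gene passed the threshold between knockdown and control. Of the 29 tested, 0 met both the 2-fold change and the adjusted p under 0.05 of the edgeR exact test, where 1 of all 11814 genes did (0.00846%). The smallest adjusted p of an ABC gene was 1. At an unadjusted p below 0.05 there was 1 ABC gene, ABCA8, with a background of 2.92% of all genes. The quasi-likelihood test of edgeR also gave 1 such gene (2.93% of all genes) and DESeq2 gave 0 (1.63%).

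The log2 differences, knockdown minus control, ran from -0.62 (ABCC1) to 0.82 (ABCA8), with 17 above 0 and 12 below. Their median was 0.09, against 0.004 over all genes tested. The standard error from the replicate spread had a median of 0.27 and ran from 0.12 to 0.58, so a difference of the size of most of these could not be told from 0. The sum over all 47 genes was 1287, 1311 and 1283 CPM with knockdown and 1188, 1281 and 1189 CPM in controls, where the lowest knockdown value (1283 CPM) lay just above the highest control (1281 CPM). Without ABCB9 the sums were 1052, 923 and 898 CPM against 856, 932 and 850 CPM, and the groups overlapped.

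ABCA8, a lipid transporter of the chromosome 17 group, held 26, 14 and 21 counts with knockdown and 13, 11 and 10 in controls. Scaled, these were 12.1, 9.46 and 14.7 CPM against 7.40, 7.20 and 5.88 CPM, and the groups did not overlap. The log2 difference was 0.82 (SE 0.19, edgeR exact test p = 0.0401, adjusted p = 1), and the exact two-sided permutation test gave 0.1, the smallest p that 3 against 3 samples allow. With length-scaled counts the log2 difference of ABCA8 was 0.85 (edgeR exact test p = 0.0576). The leading transcript of this gene, ABCA8-202, retains an intron and held 69.8% of the counts.

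ABCC6, a liver and kidney transporter whose loss causes pseudoxanthoma elasticum, held 95, 64 and 57 counts with knockdown and 67, 36 and 51 in controls. The knockdown samples lay between 40.0 and 44.2 CPM and the controls between 23.6 and 38.2 CPM, so the groups did not overlap, by a margin of under 2 CPM. With library sizes only, without TMM, they did overlap. The log2 difference was 0.47 (SE 0.20, edgeR exact test p = 0.0696, adjusted p = 1). Of the words of ABCC6-201 as annotated (5140 bases, against 5747 as quantified), 19.6% occur in 4 other genes on the same strand. The counts of ABCC6 may thus be divided with near-identical copies.

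ABCF2, a soluble ABC protein without membrane domains, went the other way, with 34, 35 and 29 counts with knockdown and 53, 38 and 45 in controls. The knockdown samples lay at 15.8, 23.6 and 20.4 CPM, below controls at 30.2, 24.9 and 26.5 CPM. The log2 difference was -0.47 (SE 0.18, edgeR exact test p = 0.125, adjusted p = 1). With length-scaled counts it was -0.32 and the groups overlapped. Of the words of ABCF2-201 as annotated (4527 bases, against 3546 as quantified), 44.2% occur in 158 other genes on the same strand. Among these is the readthrough gene ABCF2-H2BK1 with 1914 shared exonic bases and 0 counts, so the counts of ABCF2 are uncertain.

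These 2 higher genes and 1 lower gene stand beside a background of 4.42% of all tested genes whose groups did not overlap with knockdown higher and 3.56% with knockdown lower, or 7.97% in either direction. ABCF3, below the filter, also had 10, 5 and 5 counts in the knockdown samples against 9, 9 and 12, which do not overlap on the CPM scale. ABCF1, a factor in translation initiation, had the second highest log2 difference, 0.47 (SE 0.36), with overlapping groups. ABCE1, which splits ribosomes after termination, held 39, 41 and 36 counts against 62, 28 and 61, a difference of -0.35 (SE 0.35) in which control replicate 2 lay below all but 1 knockdown sample. With length-scaled counts ABCE1 had the largest decrease of the tested ABC genes, -0.69, and its groups did not overlap (edgeR exact test p = 0.0304, adjusted p = 1). On that scale the share of all genes whose groups do not overlap was not computed.

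**Figure D5:**
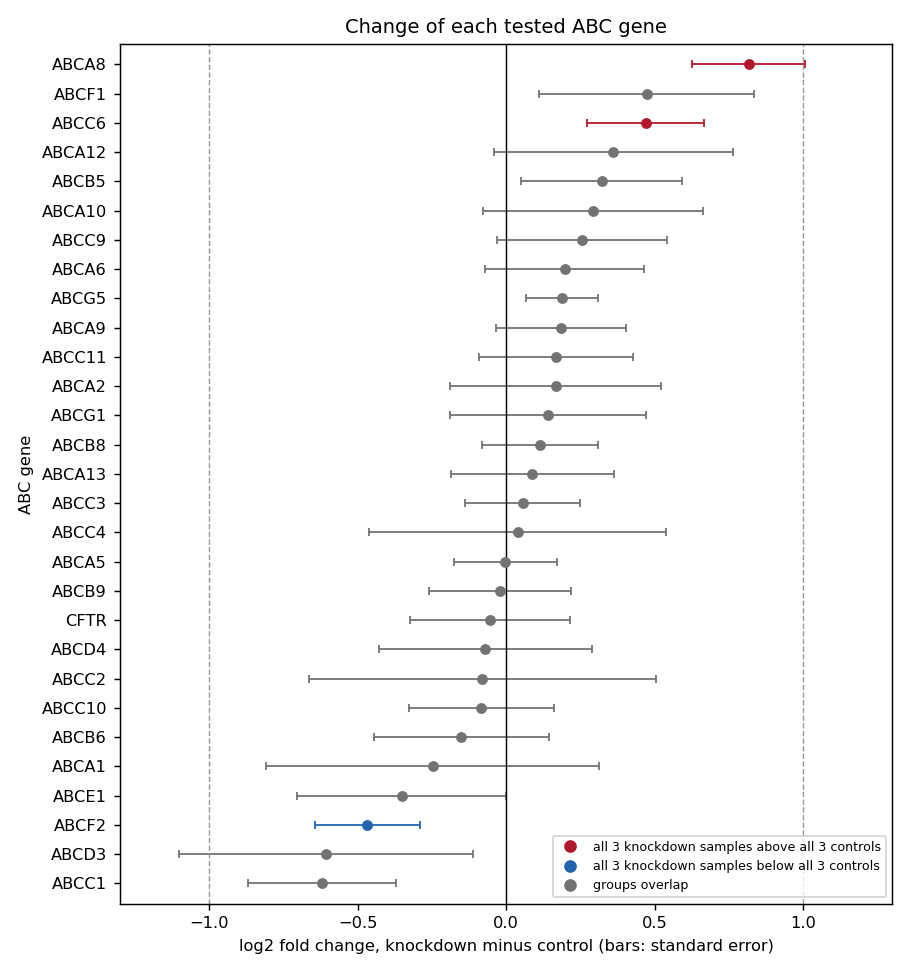
Log2 fold change of the exact test, knockdown minus control (x), of the 29 tested ABC genes. Bars are the standard error of log2 CPM from the spread of 3 samples a group, a separate estimate, and dashed lines mark a 2-fold change. ABCA8 and ABCC6 (red) and ABCF2 (blue) are the 3 genes whose groups do not overlap, and every point lies within the dashed lines.

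Knockdown replicate 1 was the highest of the 6 samples in 9 of the 29 tested ABC genes, against 28.0% of all genes tested. Control replicate 2 was the highest in 7, against 11.6% of all genes. These 2 samples also had the lowest shares of counts on 86 ribosomal protein genes, 0.232% and 0.320%, against 0.384% to 0.543% in the other 4. The part of this in any ABC value was not tested. Without both samples, a comparison chosen after seeing the data, 0 ABC genes passed the threshold, and 11 had groups that do not overlap, with 40.4% of all genes doing so at 2 against 2.

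Genes that work with ABC proteins were taken from 7 lists of 58 genes in all, of which 45 were tested. Of these, 20 had a log2 difference above 0 and 25 below, 0 passed the threshold and 0 had an unadjusted p below 0.05 by the edgeR exact test. Of the 8 genes of ribosome rescue and eIF2 control, the partners of ABCE1 and ABCF1, 7 were below 0. Their median was -0.18, against 0.004 over all genes tested. The share of all genes below 0 was not computed, so the counts of signs in these lists are a description only. PELO, which recognises stalled ribosomes, held 16, 19 and 14 counts with knockdown and 29, 26 and 24 in controls (log2 difference -0.69, SE 0.22). Its groups did not overlap, which 3.56% of all genes showed in this direction.

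Of the peptide loading genes that work beside TAP2, 5 of 7 tested were below 0, with a median of -0.33, against 0.004 over all genes tested. PDIA3, a thiol oxidoreductase of the loading complex, held 27, 64 and 51 counts against 91, 71 and 81 (log2 difference -0.69, SE 0.53), and its low sample was knockdown replicate 1. CALR (139 counts) and CANX (210 counts) were also lowest in that sample, where abundant mRNAs were lowest. TAPBPL and ERAP1 had their highest counts there, and B2M and ERAP2 lay in between. The part of such differences between libraries in the median of this or the other lists was not tested. Of 9 tested regulators of drug transport, such as AHR and NFE2L2, 7 were below 0, with a median of -0.16. In the lists of sterol regulators, peroxisome import and iron-sulfur and heme genes, the medians lay between 0.03 and 0.12, and that of the 2 tested channel partners was 0.14.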

How the data were processed

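SKOV3 RNA was sequenced in 3 knockdown and 3 control samples, grouped by their titles. Per the labels and the study's methods, stranded, ribosomal RNA-depleted libraries were quantified with kallisto 0.43.0 against Ensembl transcripts of GRCh38. The authors deposited an estimated count without normalization and a TPM for each transcript, and whether a strand option was set is not given in the sources used here. Of 173259 transcripts, 155518 were in GENCODE release 44 (93.6% to 95.2% of counts per sample). Of the 445 ABC transcripts, 367 had the same length in both. Counts and TPM were summed over the transcripts of a gene, and the count sums rounded.

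Genes passing filterByExpr (minimum count 10) were TMM-normalized and tested with edgeR 4.0.16 (R 4.3.3, exact test, Benjamini-Hochberg adjustment over 11814 genes), with a threshold of 2-fold and an adjusted p below 0.05. CPM use TMM-scaled library sizes, and standard errors come from log2 CPM with a prior count of 2. The log2 differences come from the exact test instead, so a standard error is not that of the difference beside it. Their ratio is not a test. The biological coefficient of variation was 0.232. Members, lists and tests were chosen with earlier results of these data known. Genes were named if past the threshold, if their groups did not overlap, if among the 8 highest in TPM, the 8 drug efflux members, or the 3 largest differences in either direction. Others named were chosen after their values were seen. On simulated counts (11330 genes, 200 changed), the exact test recovered 194, with 0 in the wrong direction and 24 other calls. The changes planted there were large (median fitted log2 size 1.98) and lay only in genes above a floor on mean counts. Calls there used the adjusted p alone. Recovery of differences as small as those of the ABC genes, or in genes with fewer counts, was not tested. Overlap with the other strand was computed over GENCODE exons, and shared words of 31 bases, the default word length of kallisto, over GENCODE transcripts in the files. Alternatives were the quasi-likelihood test with and without a replicate block, DESeq2 1.42.0, other normalizations, filters and gene sums, and each sample left out. Protein motifs were not searched here. A few items are not reported here.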

Additional observations from a re-analysis of the deposited data

How the results depend on the processing

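The count of ABC genes past the threshold was 0 under every alternative run, with a smallest adjusted p of an ABC gene of 0.476 without knockdown replicate 1 and control replicate 2 together (an alternative added after seeing the data) and 0.723 without control replicate 2 alone. The ABC genes below an unadjusted p of 0.05 numbered 1 in the main comparison and 0 with the replicate block, DESeq2 or library sizes only, and 0 to 1 with a sample left out. With length-scaled counts the number was also 1, but the gene was ABCE1 (edgeR exact test p = 0.0304) and not ABCA8 (p = 0.0576). Replicate numbers are shared between the groups. Deviations of same-numbered samples correlated at -0.40 to 0.23 and those of different-numbered samples at -0.41 to 0.53. With 3 samples a group, these ranges cannot decide whether the numbers mark a pairing. The numbers were not taken as a pairing in the main comparison, and the replicate block was run as an alternative. With the replicate block 0 ABC genes passed the threshold, and ABCC4 turned to -0.026. The block changed no other direction of a named gene. ABC genes whose groups do not overlap numbered 3 in the main comparison, where 7.97% of all genes did so. They numbered 2 with library sizes only (where ABCC6 overlaps) and 4 with either other filter (where ABCF3 is added). For these settings the share of all genes was not computed. With 1 sample left out they numbered between 3 and 9, where 12.8% to 27.8% of all genes did so. Without both samples they numbered 11, where 40.4% of all genes did so. They were 5, 7 and 8 without knockdown replicates 1, 2 and 3 and 9 without control replicate 2. The count of ABC genes overlapped on the other strand, 12 for any base, was 1 at 10% and 0 at 50% of exonic bases. The summed level, 1.06 times the controls, stayed between 1.04 and 1.11.

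Of 268 gene values under alternatives, 21 reversed, for 8 of the 15 genes. With length-scaled TPM counts CFTR turned to 0.36 and ABCB9 to 0.053, and with transcripts free of overlap to 0.19 and 0.33. Without both samples CFTR was 0.093, ABCB9 0.22 and ABCC4 -0.081. With 1 sample left out the log2 difference ran from -0.24 to 0.23 for CFTR, -0.14 to 0.20 for ABCB9, -0.28 to 0.12 for ABCC10, -0.10 to 0.25 for ABCC3, -0.020 to 0.32 for ABCA9, -0.38 to 0.31 for ABCC2, -0.066 to 0.42 for ABCC9 and -0.23 to 0.40 for ABCC4. The cause was not tested. ABCA8, ABCC6, ABCF2, ABCC1, ABCD3 and ABCF1 kept their sign under every alternative run, and ABCC11 under all but the sum over transcripts free of overlap, where it did not pass the filter, as ABCC9, ABCG5 and ABCE1 did not. ABCA8, ABCC6 and ABCF2 were named because their groups did not overlap, and ABCC1, ABCD3 and ABCF1 for the largest differences. Their kept sign was largely set by that choice and is no support for a difference. The sign of differences as close to 0 as those that reversed is not resolved, for the abundant ABCB9 and ABCC9 as for genes with few counts.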
